A study of Mus musculus with 10 samples.

Results

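The genes described here store iron, carry it across membranes or free it from heme. They are Fth1, Ftl1, its near copy Ftl1-ps1, Slc11a1, Slc40a1, Hmox1 and Tfrc, which were listed by name, and all 7 were found among the 31053 genes of the count matrix. Their RNA was measured by single-cell RNA sequencing of CD45+ cells, that is microglia and other immune cells, sorted from mouse brain. WT and Nlrp3KO mice gave libraries at 3, 6 and 9 months of age, whereas APP/PS1 and Nlrp3KO APP/PS1 mice gave them at 3 and 9 months. APP/PS1 mice carry transgenes for Swedish-mutant APP and a mutant human PS1 that are active in neurons, and amyloid plaques form in their brains, whereas Nlrp3KO mice lack the inflammasome sensor Nlrp3 in every cell. The 4 genotypes came from littermates, and each library was a single pool of 3 mice (2 males and 1 female), so that there were 10 libraries, 1 for each genotype and age. All brains were dissociated with actinomycin D, which blocks new transcription.

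Iron enters most cells bound to transferrin through the transferrin receptor Tfrc. Surplus iron is held in ferritin, a shell of heavy chains (Fth1), which oxidize the iron, and light chains (Ftl1), which help it to mineralize. Slc11a1 (NRAMP1) moves iron out of the phagosomes of macrophages, Slc40a1 (ferroportin) is the exporter that releases iron from the cell, and Hmox1 (heme oxygenase) opens the heme ring and frees its iron. Several of these mRNAs carry an iron-responsive element, a short hairpin that iron regulatory proteins bind when iron is scarce. In the 5' UTR such a hairpin holds back translation, and in the 3' UTR it protects the mRNA from decay, so that part of iron control acts on translation and is not seen in RNA counts.

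On the mouse genome GRCm38 (mm10) with the GENCODE M21 annotation, Fth1 lies at chr19:9980598-9985098 on the plus strand, Ftl1 at chr7:45457944-45459884 on the minus strand and Ftl1-ps1 at chr13:74399694-74407346 on the plus strand. Slc11a1 lies at chr1:74375195-74386062 (plus strand), Slc40a1 at chr1:45908068-45926523 (minus strand), Hmox1 at chr8:75093621-75100589 (plus strand) and Tfrc at chr16:32608920-32632794 (plus strand). Their annotated transcripts were searched for the loop CAGTGN, with a C 6 bases before it and 5 pairs of bases (G-T pairs included) directly around it. The 28 bases around each match that fell in a UTR follow from 5' to 3', because these hairpins are the known switch that the ferritin, exporter and receptor mRNAs share, and capitals mark the loop.
Fth1: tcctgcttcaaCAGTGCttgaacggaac
Ftl1: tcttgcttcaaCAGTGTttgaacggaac
Ftl1-ps1: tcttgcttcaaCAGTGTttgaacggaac
Slc40a1: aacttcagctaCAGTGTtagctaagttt
Tfrc 1: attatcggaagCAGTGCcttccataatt
Tfrc 2: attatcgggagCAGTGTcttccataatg
Tfrc 3: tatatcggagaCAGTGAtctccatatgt
Tfrc 4: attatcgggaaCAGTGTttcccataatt

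The Fth1 match lay in the 5' UTR (chr19:9982733-9982760, plus strand), in exon 1 of 3 of the 4 transcripts that carry it and in exon 2 of Fth1-203, that of Ftl1 in the 5' UTR in exon 1 (chr7:45459779-45459806, minus strand) and that of Slc40a1 in the 5' UTR in exon 1 (chr1:45925465-45925492, minus strand). Ftl1-ps1 held at chr13:74406429-74406456 (plus strand) the same 28 bases as Ftl1, with 0 differences. The Fth1 and Ftl1 stretches differed at 2 positions counted from the 5' end, C3T and C17T (the Fth1 base first), whereas Fth1 and Slc40a1 differed at 15 of 28. Tfrc had its 4 matches in the 3' UTR, in exon 19, at chr16:32631220-32631247, chr16:32631599-32631626, chr16:32631664-32631691 and chr16:32631711-32631738 on the plus strand. No match was found in the transcripts of Slc11a1 or Hmox1. Among 21901 genes with annotated protein-coding transcripts, 31 (0.142%) held a match in a 5' UTR, 128 (0.584%) in a 3' UTR and 140 (0.639%) in coding sequence. A match of letters is a description and was not tested as a binding site.

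RefSeq promoter sequences on GRCm38.p6, from 250 bases before to 50 bases after the start, were at hand for 4 of the 7 genes (Fth1, Ftl1, Slc11a1 and Tfrc). The core of the antioxidant response element, TGACNNNGC, was read on both strands and occurred in 0 of these promoters and in 12.4% of 32851 promoters in all. The loop CAGTGN, read the same way, occurred once each in the promoters of Slc11a1, Ftl1 and Tfrc and in 55.8% of all promoters.

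Ftl1-ps1 is annotated as a protein-coding gene on chromosome 13, yet its longest transcript (Ftl1-ps1-202) is a single exon that repeats the spliced Ftl1 mRNA. Over 910 of the 968 bases of Ftl1-201 both transcripts were 99.56% identical, with 4 mismatches. Of these mismatches, 3 fell within the last 300 bases, where 3' libraries of this kind place most reads, at 247, 211 and 151 bases from the end. No other annotated transcript reached 90% identity over 80% of Ftl1-201. Reads that miss these positions cannot be told apart between both genes, so the counts of each are uncertain and the sum of both is given as the light chain. How such reads were counted could not be checked, so the sum may be too low as well. In all cells used, Ftl1 held 426531 UMIs (unique molecular identifiers, tags that mark single captured RNA molecules) and Ftl1-ps1 6100. In microglia, the share of Ftl1-ps1 in the light chain UMIs was 1.58% ± 0.134 (SD, n = 4) at 3 months, 1.39% ± 0.224 (n = 2) at 6 months and 1.15% ± 0.209 (n = 4) at 9 months, and it lay between 1.02% and 1.66% over the 10 libraries.

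The 10 libraries held 45472 cells, 2223 to 9112 each, of which 40547 are microglia in the annotation by the authors. Microglia gave 9357431 to 35107144 UMIs per library, with 3978 to 5985 UMIs in the median microglia. Nlrp3 was counted at 0 UMIs in the microglia of the 5 Nlrp3KO libraries and at 390 to 1425 UMIs in the other 5. Of 45225 distinct cell barcodes, 246 occurred in more than 1 library. The microglial markers P2ry12, Tmem119, Cx3cr1 and Sall1 summed to 10802 counts per 1000000 UMIs (CPM) in homeostatic microglia (HM) and 7035 CPM in disease-associated microglia (DAM), against 1545 CPM in border-associated macrophages (BAM) and 435 CPM in T cells. All libraries of an age form 1 batch, so age cannot be told apart from batch, but genotypes were always compared within an age.

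The first comparison asks whether amyloid changes the iron genes of microglia as a whole. The microglia of a library were summed to 1 profile. Each of the 4 APP/PS1 profiles was set against the non-diseased profile that shared its age and Nlrp3 status, in the quasi-likelihood test of edgeR with the pair as a block. Fold changes come from such fits and are on the log2 scale, and a gene counts as called where its adjusted p is under 0.05. Because each pool of mice gave a single library, the p-values measure the spread between pairs of libraries.

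Fth1 in microglia stood at 2588 CPM in WT, 2705 CPM in Nlrp3KO, 2524 CPM in APP/PS1 and 3036 CPM in Nlrp3KO APP/PS1 mice at 3 months. At 6 months it stood at 2667 CPM in WT and 2947 CPM in Nlrp3KO mice. At 9 months it stood at 3248 CPM in WT, 2906 CPM in Nlrp3KO, 3589 CPM in APP/PS1 and 4062 CPM in Nlrp3KO APP/PS1 mice, so that both amyloid libraries of that age lay above every other library. How many of all genes separated libraries so was not counted, here or for the genes that follow. Ftl1 in the same order of genotypes was at 1691, 1765, 1601 and 1843 CPM at 3 months, 1624 and 1837 CPM (WT and Nlrp3KO) at 6 months and 2027, 1807, 1983 and 2206 CPM at 9 months. Its amyloid and non-diseased libraries overlapped at either age. Ftl1-ps1 lay between 19.1 and 32.8 CPM, and the light chain sum between 1627 and 2239 CPM.

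Of the transporters, Slc40a1 was at 170 CPM in WT, 156 in Nlrp3KO, 169 in APP/PS1 and 158 in Nlrp3KO APP/PS1 mice at 3 months, while the 9-month values were 160, 154, 115 and 124 CPM. Only at 9 months did both amyloid libraries lie below both non-diseased ones, and at 6 months the exporter stood at 148 CPM in WT and 152 CPM in Nlrp3KO mice. In HM alone its 9-month values were 177 CPM in WT, 166 in Nlrp3KO, 145 in APP/PS1 and 165 in Nlrp3KO APP/PS1 mice. The part of the mix of microglial states in the lower values was not tested. Slc11a1 varied little over the 10 libraries, from 149 to 189 CPM. Hmox1 lay between 27.3 and 36.2 CPM, with APP/PS1 (36.2 CPM) and Nlrp3KO APP/PS1 (35.6 CPM) at 9 months as its highest libraries. Tfrc was sparse, at 7.17 to 12.3 CPM or 79 to 349 UMIs per library.

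**Figure D1:**
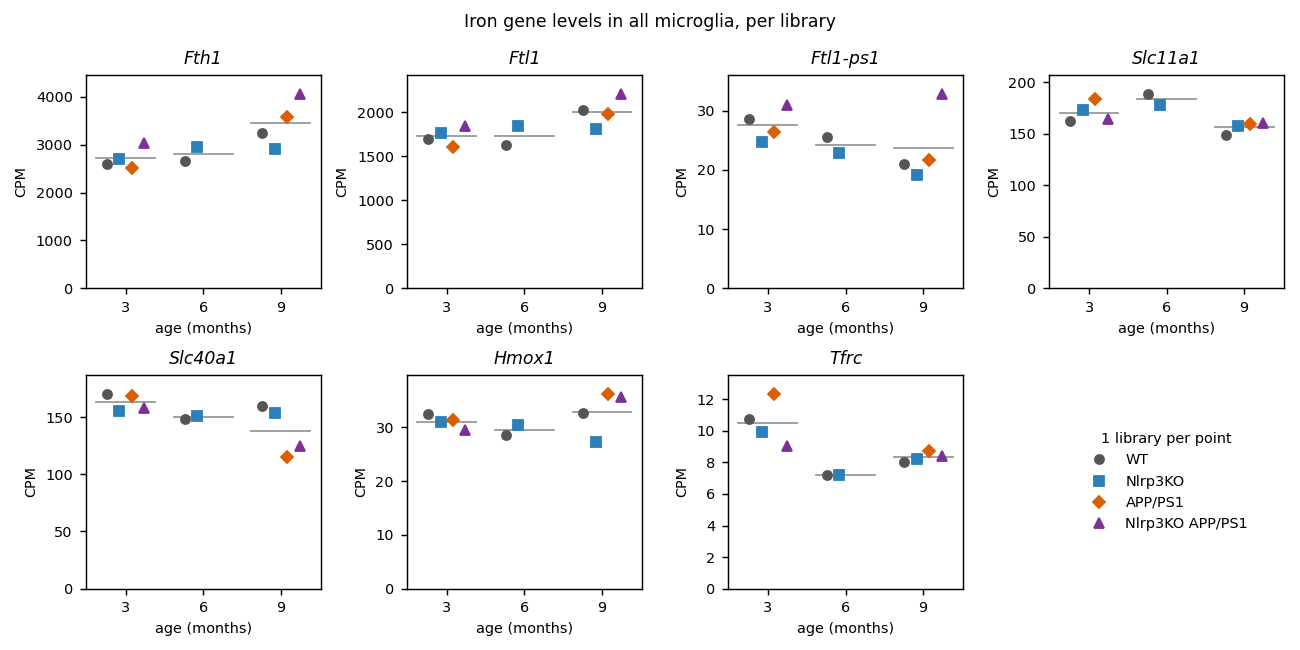
Counts per 1000000 UMIs (CPM, y axis, from 0) of the 7 genes in the summed microglia of each of 10 libraries against age in months (x axis). Each symbol is 1 library, with shape and colour for the genotype, and horizontal lines are the mean of an age. Among the amyloid libraries at 9 months are the highest Fth1 (4062 CPM) and the lowest Slc40a1 (115 CPM) of all 10.

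None of the 7 genes was called for amyloid in microglia, where 5 of 12007 genes (0.0416%) passed the test and 876 had an unadjusted p under 0.05. Fth1 stood at 0.21 ± 0.098 (log2 fold change and SE) with an edgeR adjusted p of 0.698, and it was higher in 3 of 4 pairs. Slc40a1 had a log2 fold change of -0.17 ± 0.077 (adjusted p = 0.698) and was lower in 3 of 4 pairs. The other members lay between 0.06 (Tfrc) and 0.26 (Ftl1-ps1), and the light chain sum was at 0.08 ± 0.082. Among the 7 genes, 0 reached an unadjusted p under 0.05 and 0 were called by DESeq2. In HM alone and in microglia without DAM, 0 members were called as well.

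Whether the amyloid effect differed between 3 and 9 months was tested as an interaction. By edgeR, 0 of 12007 genes (0.0%) were called, 574 had an unadjusted p under 0.05, and DESeq2 called 7, none of them a member. Among the members, the unadjusted p was under 0.05 for 2, Hmox1 and Slc40a1. For Hmox1 the amyloid effect at 9 months exceeded that at 3 months by 0.40 ± 0.125 (log2, adjusted p = 0.884), and for Slc40a1 the difference was -0.32 ± 0.107 (adjusted p = 0.884).

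For Nlrp3, 5 pairs of a knockout and an Nlrp3-sufficient library of the same age and amyloid background were compared. In microglia, 4 of 12048 genes (0.0332%) were called, 0.0083% higher, 550 had an unadjusted p under 0.05, and 0 of the 7 iron genes were called by edgeR or by DESeq2 or had an unadjusted p under 0.05. Fth1 had a log2 fold change of 0.11 ± 0.063 (adjusted p = 0.899) and Ftl1 of 0.09 ± 0.060 (adjusted p = 0.899), each higher in 4 of 5 pairs.

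Both ferritin chains were higher at 9 months than at 3 months in microglia. In this comparison, with genotype as a block, 2784 of 12007 genes (23.2%) were called, 12.6% higher and 10.6% lower, so that a call was common among all genes. Fth1 averaged 2713 ± 228 CPM (SD, n = 4) at 3 months and 3451 ± 494 CPM (n = 4) at 9 months, a log2 fold change of 0.43 ± 0.086 (edgeR, adjusted p = 0.016), with higher values in 4 of 4 genotypes. Ftl1 averaged 1725 ± 103 CPM and 2006 ± 164 CPM, a log2 fold change of 0.30 ± 0.070 (adjusted p = 0.025), also higher in 4 of 4, and the sum with Ftl1-ps1 gave 0.30 ± 0.070 (adjusted p = 0.026). The calls did not hold without every pair. Without the APP/PS1 pair the adjusted p was 0.079 for Fth1 and 0.108 for Ftl1, without the Nlrp3KO APP/PS1 pair it was 0.064 and 0.083, without the WT pair 0.026 and 0.056, and without the Nlrp3KO pair 0.013 and 0.018. Because age is also the batch, a difference between batches cannot be told apart from age here. Other values also moved with age. The median share of mitochondrial UMIs was 2.35% to 3.16% in the libraries at 3 months and 3.39% to 3.67% at 9 months, that of ribosomal gene UMIs 7.56% to 8.15% and 9.17% to 10.3%, and the share of DAM 0.431% to 1.01% and 2.34% to 11.7%. The 5 immediate early genes summed to 259 to 311 CPM in the microglia at 3 months and 255 to 436 CPM at 9 months. Their part in the result was not tested.

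The other 5 members were not called for age in microglia. Tfrc had a log2 fold change of -0.25 ± 0.105 (adjusted p = 0.133) and Slc40a1 of -0.17 ± 0.083 (adjusted p = 0.184), with lower CPM in 4 of 4 genotypes for each. The CPM of Slc11a1 was lower in 4 of 4 as well. With library size alone the median log2 fold change of all genes was -0.0835, and how many genes were lower in 4 of 4 was not counted. Ftl1-ps1 stood at -0.16 ± 0.109 (adjusted p = 0.314), against the direction of Ftl1. In HM alone, Fth1 (0.26, adjusted p = 0.019), Ftl1 (0.20, adjusted p = 0.029) and Ftl1-ps1 (-0.35, adjusted p = 0.021) were called, where 1943 of 11553 genes were. With library size alone in place of TMM scaling, the calls for age turned from 1515 higher and 1269 lower to 1069 higher and 2307 lower, and 3 members were called, Fth1 (0.34), Ftl1 (0.22) and Tfrc (-0.33, adjusted p = 0.045).

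DAM are a state in the annotation by the authors, not cells picked by their position near plaques, and non-diseased mice held them as well. Their share of the microglia ran from 0.431% in WT mice at 3 months to 11.7% in APP/PS1 mice at 9 months, and a library held 24 (APP/PS1, 3 months) to 253 (APP/PS1, 9 months) of them, so that a level over all microglia mixes states in unequal shares. The amyloid effect was therefore also fitted in DAM alone, where 445 of 5293 genes (8.41%) were called, 6.33% higher and 2.08% lower, and 1053 had an unadjusted p under 0.05. Of the 6 members tested in DAM (Tfrc was too sparse), Fth1, Ftl1 and Slc11a1 were higher in APP/PS1 mice. These calls depend on which cells are taken as DAM and on the pairing. With the 1416 DAM of the annotation of all CD45+ cells in place of the 901 of the microglia annotation, Slc11a1 alone was called (0.63, adjusted p = 0.030), at 0.36 (adjusted p = 0.207) for Fth1 and 0.17 (adjusted p = 0.650) for Ftl1. Without the pair as a block Fth1 alone was called (adjusted p = 0.0067), at an adjusted p of 0.051 for Ftl1 and 0.238 for Slc11a1.

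In DAM of non-diseased mice, Fth1 stood at 3417 CPM (WT) and 3338 CPM (Nlrp3KO) at 3 months, with 3957 CPM (WT) and 3433 CPM (Nlrp3KO) at 9 months. In DAM of APP/PS1 mice it stood at 4750 CPM at 3 months and 5325 CPM at 9 months, and in those of Nlrp3KO APP/PS1 mice at 6717 CPM and 6347 CPM. The groups did not overlap. How many of all genes separated so, or rose in 4 of 4 pairs, was not counted, here or for the genes below. The mean was 5785 ± 907 CPM with amyloid and 3536 ± 283 CPM without (SD, n = 4 each), a log2 fold change of 0.85 ± 0.144 (edgeR, adjusted p = 6.1e-04), higher in 4 of 4 pairs.

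Ftl1 in DAM stood at 1901 CPM in WT and 2720 CPM in Nlrp3KO mice at 3 months, and 9-month values were 1507 and 1464 CPM. With amyloid it stood at 2434 CPM in APP/PS1 and 3434 CPM in Nlrp3KO APP/PS1 mice at 3 months, and 9-month values were 2510 and 2945 CPM. Both groups overlapped, since the Nlrp3KO library at 3 months lay above 2 of the amyloid libraries, but every pair moved upwards. The log2 fold change was 0.76 ± 0.143 (adjusted p = 0.0015) and that of the light chain sum 0.76 ± 0.143 (adjusted p = 0.0015). Ftl1-ps1 alone had a log2 fold change of 0.98 ± 0.308 (adjusted p = 0.052) on 3 to 55 UMIs per library, higher in 4 of 4 pairs. It passed the threshold with no filter on low counts (1.045, adjusted p = 0.026) and without likely doublets, cells with a doublet score over 0.5 (1.15, adjusted p = 0.039), but fell short with the DAM of the annotation of all CD45+ cells (0.40, adjusted p = 0.465) and without the pair as a block (0.95, adjusted p = 0.250).

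Slc11a1 in DAM stood at 211 CPM in WT and 196 CPM in Nlrp3KO mice at 3 months, and 9-month values were 82.0 and 57.1 CPM. With amyloid it stood at 308 CPM in APP/PS1 and 287 CPM in Nlrp3KO APP/PS1 mice at 3 months, and 9-month values were 137 and 151 CPM. Within each age the amyloid libraries lay above the non-diseased ones, with 24 to 228 UMIs behind a value. The log2 fold change for amyloid was 0.97 ± 0.188 (adjusted p = 0.0021), higher in 4 of 4 pairs.

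Slc40a1 ran the other way in DAM, though it missed the threshold. Non-diseased DAM held 80.8 CPM (WT) and 98.0 CPM (Nlrp3KO) at 3 months and 85.4 and 78.0 CPM at 9 months, against 57.1 and 46.1 CPM in APP/PS1 and Nlrp3KO APP/PS1 DAM at 3 months and 42.2 and 47.4 CPM at 9 months. At 3 and 9 months no amyloid library reached a non-diseased one, on 13 to 70 UMIs per library. The 6-month non-diseased DAM, which have no amyloid partner, held 49.4 CPM (WT) and 117 CPM (Nlrp3KO). The WT value at 6 months thus lay within the range of the amyloid libraries. The log2 fold change was -0.70 ± 0.220 (adjusted p = 0.053), lower in 4 of 4 pairs, and -0.32 (adjusted p = 0.355) with the DAM of the annotation of all CD45+ cells. Hmox1 had a log2 fold change of 0.07 ± 0.259 (adjusted p = 0.922), and Tfrc had 1 to 20 UMIs in these libraries.

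**Figure D2:**
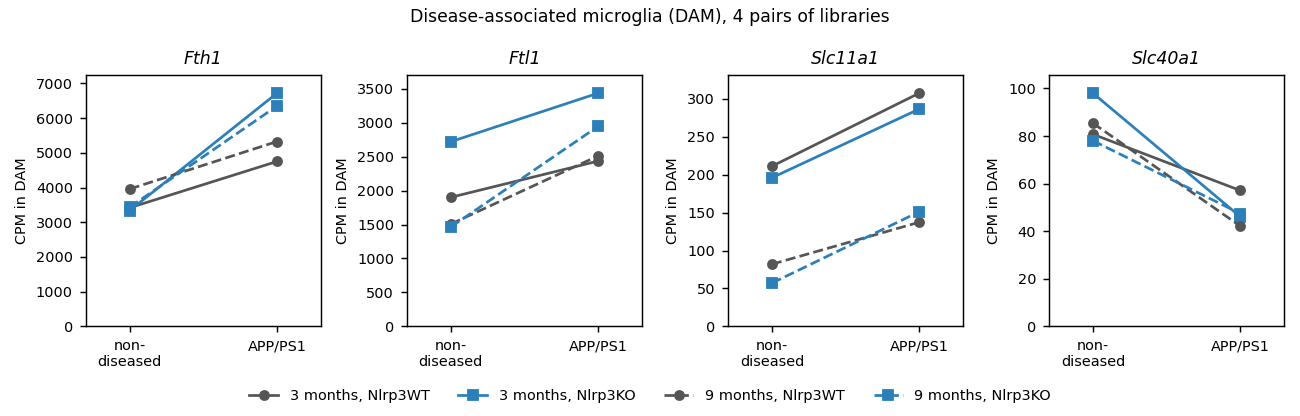
CPM (y axis, from 0) of Fth1, Ftl1, Slc11a1 and Slc40a1 in DAM of non-diseased mice (left) and of the APP/PS1 mice that match in age and Nlrp3 genotype (right), each pair joined by a line. Fth1, Ftl1 and Slc11a1 rise in 4 of 4 pairs and Slc40a1 lies lower in 4 of 4, and for Slc11a1 both 9-month lines run below both 3-month lines.

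The DAM of both groups were not alike in other respects. Their summed DAM markers (Cst7, Lpl, Itgax, Spp1 and Csf1, all 5 detected) ran from 211 to 961 CPM without amyloid and from 1832 to 3741 CPM with it, and at 3 and 9 months 18.9% to 30.9% of the DAM held a Cst7 UMI without amyloid and 53.8% to 84.3% with it. The 4 microglial markers summed to 8954 to 10270 CPM without and 4760 to 7061 CPM with amyloid. The 5 border macrophage markers summed to 0 to 49.7 CPM without and 8.79 to 36.2 CPM with amyloid (3 of the 5 at 0 in each group), the 4 monocyte markers to 0 to 20.5 and 4.94 to 39.2 CPM, and all 5 red blood cell markers were at 0 in both. Immediate early genes, a sign of dissociation, summed to 150 to 265 CPM without and 166 to 245 CPM with amyloid. The part of these markers in the iron gene result was not tested.

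When only DAM with a Cst7 UMI entered, Fth1 (0.66, adjusted p = 0.016) and Slc11a1 (1.004, adjusted p = 0.020) were called and Ftl1 was not (0.48, adjusted p = 0.186). In that fit 142 of 2175 genes were called and 4 members were tested. It rests on few cells, 7 to 27 in a non-diseased library and 15 to 149 in an amyloid one. With all DAM of the microglia annotation, the calls of the 3 genes held when each pair in turn was left out. TMM scaling moved the median of all genes in DAM from -0.19 with library size alone to -0.03, and without it 207 genes were called higher and 245 lower in place of 335 and 110. On that scale Fth1 (0.69), Ftl1 (0.60) and Slc11a1 (0.80) remained called, and Slc40a1 was called lower (-0.86, adjusted p = 0.019).

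In microglia on the way to DAM (transitory microglia, TM), 4 of 8339 genes (0.048%) were called for amyloid (0.024% higher and 0.024% lower), 414 had an unadjusted p under 0.05, and 0 of the 6 members tested were called by edgeR or DESeq2. Fth1 had a log2 fold change of -0.03 ± 0.066 and Ftl1 of -0.05 ± 0.068. Ftl1-ps1 was at 0.70 ± 0.170 (adjusted p = 0.260), higher in 4 of 4 pairs. The CPM of Slc40a1 in TM was also higher with amyloid in 4 of 4 pairs (median log2 ratio 0.097), and how many of all genes were so was not counted. The difference between the amyloid effects in DAM and TM was not tested. For Nlrp3 within DAM, 7 of 4608 genes (0.152%) were called, 374 had an unadjusted p under 0.05, and 0 of 6 members were called by edgeR or DESeq2. Ftl1, at 0.33 ± 0.111 (adjusted p = 0.351) and higher in 4 of 5 pairs, and Ftl1-ps1, at 0.56 ± 0.236 (adjusted p = 0.547) and higher in 5 of 5, had an unadjusted p under 0.05.

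The level of Slc11a1 in DAM also differed between ages. It averaged 250 ± 55.0 CPM at 3 months and 107 ± 44.7 CPM at 9 months (SD, n = 4 each), with 168 CPM in WT and 162 CPM in Nlrp3KO mice at 6 months between them. The log2 fold change of 9 against 3 months was -1.17 ± 0.172 (edgeR, adjusted p = 7.3e-04), lower in 4 of 4 genotypes, where 262 of 5293 genes (4.95%) were called, 2.1% higher and 2.85% lower. It remained called with each genotype left out, with the DAM of the other annotation (-0.89, adjusted p = 7.2e-04) and in DAM with Cst7 (-0.95, adjusted p = 0.029), but not without the genotype as a block (adjusted p = 0.109). The set with Cst7 held only 7 to 27 cells in a non-diseased library, and 44 of 2175 genes were called in it. In HM Slc11a1 was at 148 to 181 CPM over the 10 libraries and was not called for age (-0.03 ± 0.053). In PM it was lower at 9 months in 4 of 4 genotypes (median log2 ratio -0.51) and in TM in 4 of 4 (median -0.20), and whether the age effect differed between states was not tested. Fth1 (0.14 ± 0.101, adjusted p = 0.484) and Ftl1 (-0.29 ± 0.131, adjusted p = 0.234) were not called for age in DAM. Age and batch cannot be told apart in this comparison either, and it was added after values of the gene had been seen.

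**Figure D3:**
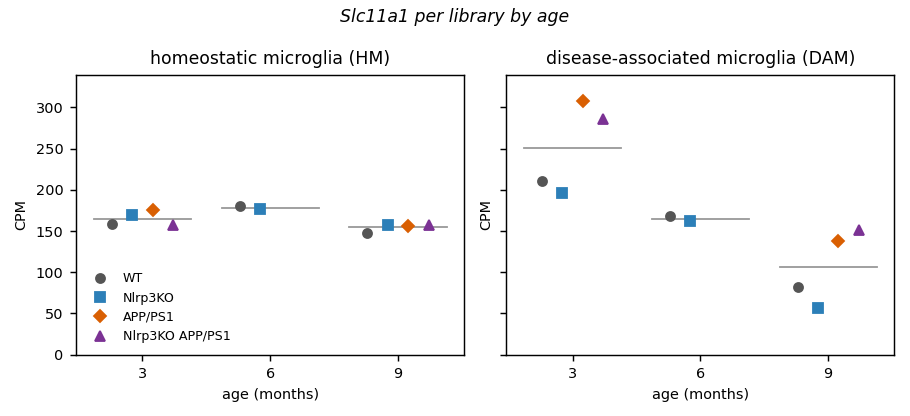
CPM of Slc11a1 (y axis, from 0) in HM (left) and DAM (right) of each of 10 libraries against age in months (x axis). Symbols are single libraries by genotype and lines the mean of an age. HM stay between 148 and 181 CPM, whereas DAM run from 308 CPM in APP/PS1 mice at 3 months to 57.1 CPM in Nlrp3KO mice at 9 months.

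Set beside HM of the same library, DAM held more Fth1 and Hmox1 and less Slc40a1 in 10 of 10 libraries. These states are clusters that the authors drew from the same cells, so the values are a description without a test. Fth1 averaged 4432 ± 1295 CPM in DAM and 2621 ± 248 CPM in HM (SD, n = 10), a mean log2 ratio of 0.71 ± 0.34. Hmox1 averaged 45.3 ± 9.80 and 26.3 ± 1.70 CPM, a ratio of 0.76 ± 0.26, and of 10987 genes 2.06% were higher in DAM in all 10 libraries. The genes counted had at least 200 UMIs in DAM and HM together and were not matched in level to the members. Sparse genes rarely keep 1 direction in all libraries, so these shares do not measure how rare the pattern is at the level of Fth1. Slc40a1 averaged 70.1 ± 25.4 and 166 ± 10.9 CPM, a ratio of -1.33 ± 0.49, and 6.82% of the genes were lower in DAM in all 10. Ftl1 was higher in 8 of 10 (ratio 0.45 ± 0.43), Slc11a1 in 4 of 10 and Tfrc in 5 of 10. For Slc11a1 the count turned with the choice of cells, from 7 of 10 in the annotation of all CD45+ cells to 1 of the 7 libraries with at least 50 DAM. In the annotation of all CD45+ cells, Fth1, Ftl1 and Hmox1 were higher in 10 of 10, where 3.66% of genes were, and Slc40a1 lower in 10 of 10, where 11.9% of genes were. When likely doublets (score over 0.5) were left out, Fth1 and Hmox1 stayed higher (1.99% of genes) and Slc40a1 lower (6.56%) in 10 of 10, and so they did in 7 of the 7 libraries with at least 50 DAM (3.75% and 14.8%).

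Among all 6 microglial states, Fth1 was highest in TM (4494 ± 392 CPM), then DAM (4432 ± 1295), cells with an immediate early gene response (IEG, 4089 ± 900), interferon-response microglia (IRM, 3391 ± 298), proliferating microglia (PM, 2933 ± 447) and HM (2621 ± 248). The paper calls the IEG signature a known response to tissue dissociation, and the part of dissociation in the levels of IEG was not tested. Neighbours in an order were held apart where the mean difference over the same libraries exceeded its SD, and only IRM over PM and PM over HM did so. The light chain sum was led by IEG (3095 ± 685 CPM), followed by TM (2579), DAM (2334), IRM (1830), HM (1659) and PM (1522), where IRM over HM and HM over PM were held apart.

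Hmox1 stood out in IEG at 80.4 ± 26.1 CPM, beyond its spread above DAM (45.3), followed by TM (37.7), IRM (30.8), HM (26.3) and PM (23.5) with no further step between neighbours beyond its spread. Farther apart in that order, TM (32.4 to 42.8 CPM) and HM (23.0 to 28.9 CPM) did not overlap. How many of all genes kept TM and HM apart so was not counted, here or for Slc11a1 below. Slc40a1 ran from HM (166) over PM (139), IEG (126), IRM (120) and TM (107) to DAM (70.1), and only DAM was held apart from its neighbour. Slc11a1 ran from TM (206 CPM) over IEG (198), DAM (176), IRM (171) and HM (164) to PM (130), and only HM over PM was a step between neighbours beyond its spread, though TM (177 to 241 CPM) overlapped HM (148 to 181 CPM) only at the edge. For Tfrc, the order IEG (19.4), PM (13.6), DAM (11.4), IRM (8.82), HM (8.12) and TM (5.79) held no step beyond the spread.

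**Figure D4:**
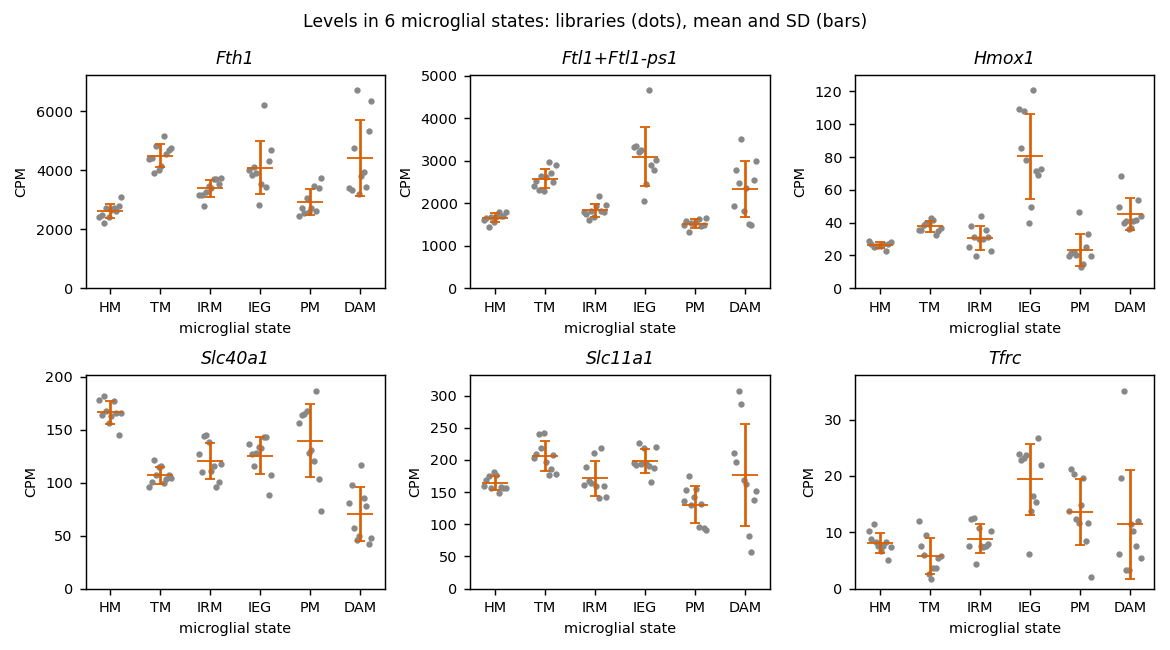
CPM (y axis, from 0) of Fth1, the light chain sum, Hmox1, Slc40a1, Slc11a1 and Tfrc in 6 microglial states (x axis). Grey dots are 10 libraries, and the orange bars are the mean and SD. Hmox1 is highest in IEG (80.4 CPM), Slc40a1 is highest in HM (166 CPM) and lowest in DAM (70.1 CPM), and Fth1 and Slc11a1 spread most in DAM.

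The share of cells with a UMI was compared after each cell was thinned to 1500 UMIs, which left out 0 cells, and intervals are 95% exact binomial and cover counting error only. For Slc40a1 it was 21.4% (20.9 to 21.8) in HM and 8.44% (6.70 to 10.4) in DAM, against 0.375% in T cells, which stand for background. In DAM at 3 months it was 10.3% (5.24 to 17.7) with amyloid and 7.35% (2.43 to 16.3) without, on 11 and 5 cells with a UMI, and at 9 months 6.37% (4.31 to 9.03) and 12.1% (7.45 to 18.3). The 3-month shares turned with the depth, at 3.74% and 5.88% when cells were thinned to 1000 UMIs and 25.2% and 27.9% without thinning, the intervals overlapped at each depth, and no order was read from them. For Hmox1 it was 3.87% (3.67 to 4.09) in HM and 5.55% (4.15 to 7.25) in DAM, with 0.250% in T cells, and in DAM it was 3.74% with amyloid and 4.41% without at 3 months and 5.93% and 5.73% at 9 months. For Slc11a1 it was 21.7% in HM, 18.8% in DAM and 0.814% in T cells, but the DAM of all libraries mix ages, and 455 of the 901 come from APP/PS1 and Nlrp3KO APP/PS1 mice at 9 months. At 3 months it was 32.7% in DAM with amyloid and 26.5% without, against 21.2% and 21.8% in HM, and at 9 months 16.0% and 10.2% in DAM against 20.9% and 20.9% in HM. Median depths before thinning were 4366 UMIs in HM, 5726 in DAM and 5810 in T cells. Without thinning the shares were 49.2% and 26.1% for Slc40a1, 11.1% and 23.5% for Hmox1 and 49.2% and 49.7% for Slc11a1 in HM and DAM.

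The ratio of heavy to light chain UMIs (Fth1 over the light chain sum) was 1.62 ± 0.11 in microglia (SD, n = 10, range 1.51 to 1.81). It was 1.58 ± 0.072 in HM, 1.94 ± 0.39 in DAM and 1.33 ± 0.15 in IEG. Outside microglia it was 1.92 ± 0.20 in BAM, 1.36 ± 0.10 in the BAM that the annotation names after Lyve1 (BAM Lyve1) and 2.61 ± 0.40 in T cells. Among the states and the types with 3 or more libraries, the lowest mean ratios were those of IEG and BAM Lyve1. Types with fewer libraries were not ranked. Nonclassical monocytes held 4075 CPM of Fth1 and 5061 CPM of Ftl1, and other monocytes 2803 and 4668 CPM, on 2 libraries each. The ratio compares UMIs counted at the 3' end, not protein, and is read between cells, not as an order of both chains.

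Across all CD45+ cells, 13 annotated types had at least 20 cells in 3 or more libraries. Among these 13 types, ferritin RNA was highest in the macrophages at the borders of the brain. Fth1 averaged 9291 ± 990 CPM in BAM (n = 10) and 7528 ± 755 CPM in BAM Lyve1 (n = 9), then 5021 ± 548 CPM in type 2 conventional dendritic cells (cDC2, n = 3), and was lowest in T cells (1730) and natural killer (NK) cells (1696). The steps from BAM to BAM Lyve1 and on to cDC2 were beyond their spread, and that from T to NK cells was not. The light chain sum was led by BAM Lyve1 (5558 ± 442 CPM) over BAM (4852 ± 504), IEG (3565) and DAM (2654), with T cells (670) at the end. Of the types with fewer libraries, plasmacytoid dendritic cells held 8383 CPM of Fth1 (1 library), and nonclassical monocytes 5103 CPM and other monocytes 4718 CPM of the light chain sum (means of 2 libraries each).

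Slc11a1 divided the types into a high and a low group. It lay between 133 CPM (PM) and 214 CPM (TM) in the microglial states and both BAM types, and at most at 14.8 CPM in NK cells, B cells, cDC2, T cells and NKT cells, with the step from PM to NK cells beyond its spread. When likely doublets (score over 0.5) were left out, NK cells held 1.55 CPM and T cells 2.25 CPM of Slc11a1, and the Slc40a1 of NK cells went from 13.7 to 0.222 CPM. Nonclassical monocytes, with 2 libraries, held 321 and 334 CPM, and other monocytes 63.1 and 63.4 CPM. Among the 13 types Hmox1 was highest in BAM Lyve1 (140 ± 54.7 CPM), IEG (108 ± 24.7) and BAM (70.7 ± 24.5), with 91.2 and 130 CPM in the nonclassical monocytes of 2 libraries, and was at 2.05 ± 2.03 CPM in T cells. BAM Lyve1 and IEG did not differ beyond their spread (BAM Lyve1 higher in 4 of 9 libraries), whereas IEG over BAM did. Tfrc had its highest mean in B cells (54.9 ± 26.5 CPM, n = 8), which were not beyond their spread above IEG, and the 102 plasmacytoid dendritic cells held 156 UMIs of it, with 153 CPM in the 1 library that had enough of these cells.

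Slc40a1 was highest in BAM Lyve1 (186 ± 51.1 CPM) and HM (169 ± 10.8 CPM), which did not differ beyond their spread, and stood at 8.85 ± 6.67 CPM in BAM, near T cells (4.98 ± 7.77 CPM). Both kinds of border macrophage were compared within 9 libraries, again as a description of clusters drawn on these cells. Over all libraries, their 5 border macrophage markers summed to 7347 CPM in BAM Lyve1 and 1342 CPM in BAM. The 4 monocyte markers summed to 4.06 CPM in BAM Lyve1 and 1390 CPM in BAM, and their part in the differences was not tested. Slc40a1 was higher in BAM Lyve1 in 9 of 9, with a lowest, median and highest value of 88.2, 196 and 264 CPM against 0, 9.07 and 21.1 CPM in BAM, and both did not overlap. Of 4479 genes with at least 200 UMIs, 14.5% were higher in BAM Lyve1 in all 9 libraries and 9.2% lower. Hmox1 (140 against 73.2 CPM), Tfrc (18.0 against 3.61 CPM) and Ftl1 (5478 against 4771 CPM) were higher in BAM Lyve1 in 8 of 9, Fth1 was lower in 9 of 9 (7528 against 9155 CPM), and Slc11a1 was lower in 7 of 9 (135 against 144 CPM). How many of all genes reached 8 of 9 or 7 of 9 was not counted. Tfrc rests on 39 UMIs in BAM Lyve1 and 19 in BAM over all libraries. At 1500 UMIs per cell, 20.9% of BAM Lyve1 (17.0 to 25.4) and 1.66% of BAM (0.858 to 2.87) held a Slc40a1 UMI, with median depths of 5137 and 6154 UMIs.

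**Figure D5:**
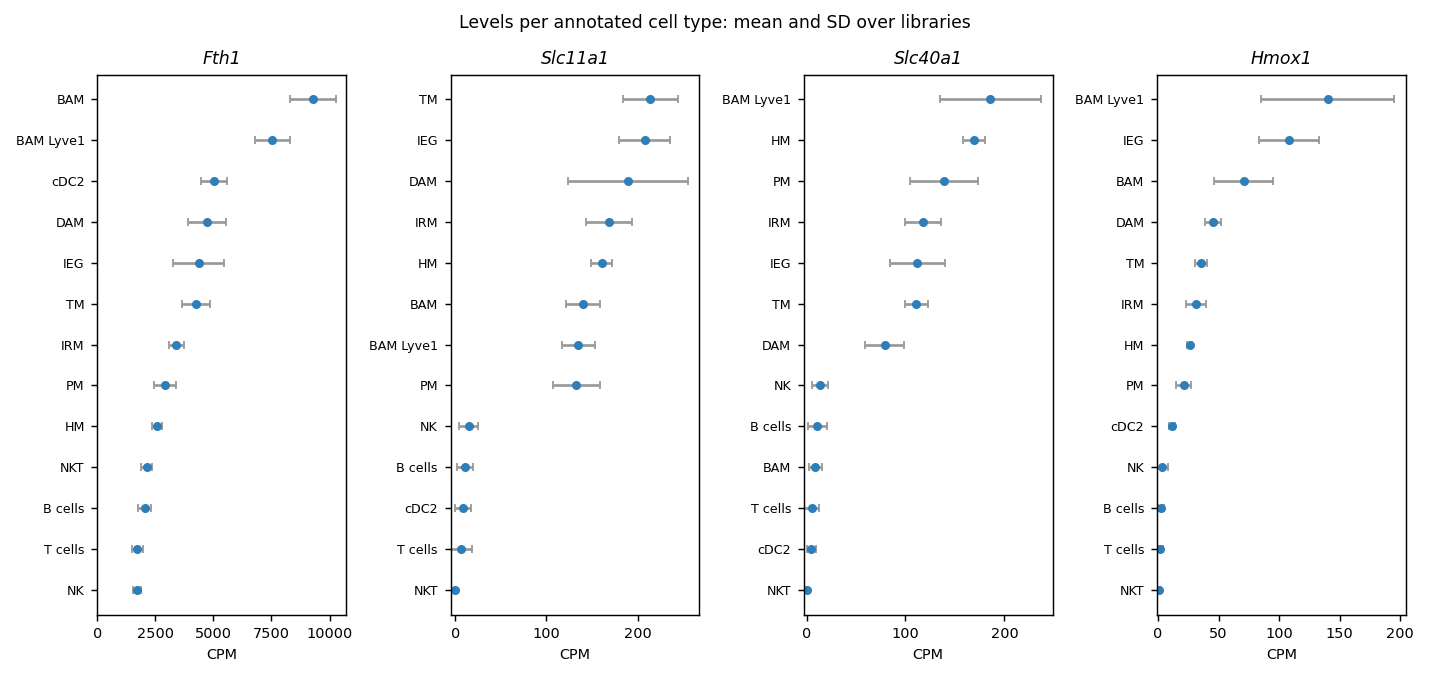
Mean CPM (x axis) with SD over libraries of Fth1, Slc11a1, Slc40a1 and Hmox1 in 13 annotated cell types (y axis), each sorted from high to low. The x axis starts at 0 for Fth1 and slightly below 0 for the other genes, where SD bars cross 0. Fth1 is highest in BAM (9291 CPM) and BAM Lyve1 (7528 CPM), Slc11a1 steps from 133 CPM in PM to 14.8 CPM in NK cells, and Slc40a1 is at 186 CPM in BAM Lyve1 but 8.85 CPM in BAM.

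Genes with the most similar pattern were looked up by Pearson's r of log2(CPM + 1). Over 19 cell types these were, for Fth1, Fam174a (0.86), Inppl1 and Ap3d1, for Ftl1, Alpk1 (0.92), Nrros and Tgfbi, and for Ftl1-ps1, Nrros (0.89), Alpk1 and Cyp27a1. For Slc11a1 they were Adgre1 (0.95), the gene of the macrophage marker F4/80, Abcc5 and Ly96, for Slc40a1, Ptgs1 (0.95), Dlc1 and Tcn2, for Hmox1, Cyb5r1 (0.94), Mospd2 and Nfe2l2 (0.93), the transcription factor NRF2, and for Tfrc, Hibadh (0.82), Nsmce2 and Atp6v1d. Over the microglia of 10 libraries they were Ube2t (0.99), Prdx4 and Npc2 for Fth1, Cenpe (0.98), Cdc20 and Hmmr for Ftl1, 2310022B05Rik (0.92), Mr1 and Tpm2 for Ftl1-ps1, Rnf114 (0.89), BC028528 and Acp6 for Slc11a1, Csrnp2 (0.97), Orc4 and Tppp for Slc40a1, Rell1 (0.91), 9130019O22Rik and Hexa for Hmox1 and Mmgt1 (0.95), Zfp142 and Elovl5 for Tfrc. The cell types share libraries, and the libraries share batch and depth, so these are descriptions of the best of 11042 and 10332 genes.

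Genes of 4 further lists of iron biology were called mostly for age in microglia, which cannot be told apart from batch. There, 13 of 44 tested genes were called, not far from the 23.2% of all genes, so the counts say nothing particular about the lists. Of 11 tested genes of iron storage, ferritin turnover and iron sensing, 1 rose and 4 fell at 9 months. Pcbp2, an iron chaperone (0.24, adjusted p = 0.018), rose. Pcbp1, the chaperone that loads ferritin (-0.42, adjusted p = 0.013), Aco1, which is iron regulatory protein 1 when it lacks its iron cluster (-0.39, adjusted p = 0.013), Ncoa4, the receptor that takes ferritin to the lysosome (-0.24, adjusted p = 0.017), and Slc25a28, a mitochondrial iron carrier (-0.37, adjusted p = 0.045), fell. The list's median log2 fold change was -0.15, against 0.00089 over all genes tested.

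Of 9 tested genes of iron uptake and release, 3 rose and 0 fell with age, namely Cp, the ferroxidase ceruloplasmin (1.52 ± 0.287, adjusted p = 0.014), Mcoln1, a lysosomal channel (0.35, adjusted p = 0.039), and Trf, transferrin (0.29, adjusted p = 0.032), and the list's median was 0.04. Of 13 NRF2 target genes, 4 rose and 1 fell, and the median was -0.15. Prdx1, a peroxidase (0.40, adjusted p = 0.0057), Sqstm1, an autophagy receptor (0.30, adjusted p = 0.049), Nfe2l2 itself (0.23, adjusted p = 0.043) and Gpx4, which removes lipid peroxides (0.22, adjusted p = 0.027), rose, and Txnrd1, a thioredoxin reductase (-0.27, adjusted p = 0.017), fell. Of 11 genes of heme handling, 0 were called by edgeR, 4 had an unadjusted p under 0.05, and the median was -0.02.

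Between genotypes the lists held few calls. For amyloid in DAM, where 8.41% of all genes were called, 1 of 8 NRF2 targets was, Gpx4 (0.62 ± 0.177, adjusted p = 0.032), and 0 of 3, 0 of 7 and 0 of 6 genes of uptake, storage and heme handling, of which 1, Pcbp1 (-0.36), had an unadjusted p under 0.05. For age in DAM, where 4.95% of all genes were called, 1 gene of the lists was, Iscu, a scaffold for iron-sulfur clusters (0.58 ± 0.161, adjusted p = 0.044). For amyloid in microglia, 0 of 44 genes were called by edgeR and 2 had an unadjusted p under 0.05, Ncoa4 (-0.14) and Slc25a37, the mitochondrial iron carrier mitoferrin (-0.15). The next smallest unadjusted p in each list were those of Iscu (0.12) and Pcbp2 (0.07) for storage, Slc39a8 (0.14), Hfe (-0.10), Slc11a2 (0.11) and Lrp1 (0.07) for uptake, Blvrb (-0.09), Fech (-0.10), Ppox (-0.08) and Flvcr1 (-0.12) for heme, and Keap1 (0.10), Slc7a11 (0.31), Txnrd1 (0.06) and Gsr (0.11) for NRF2 targets, all with an adjusted p of at least 0.617. For Nlrp3 in microglia and in DAM, for amyloid in TM and for the amyloid effect by age, 0 genes of these lists were called by edgeR. An unadjusted p under 0.05 was seen there for Cp, Gclc and Mafg (Nlrp3 in microglia), Trf and Lrp1 (Nlrp3 in DAM), Srxn1 (amyloid by age) and 0 genes in TM.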

How the data were processed

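CD45+ brain cells of 10 libraries were profiled with 10x 3' chemistry. The authors aligned reads to mm10 with Cell Ranger, filtered and annotated cells with Seurat and Scater, joined libraries with harmony and deposited UMI counts per gene and cell, which were used as counts. The deposited annotation of microglia and that of all CD45+ cells gave the states and cell types, and also a mitochondrial percent and, as fractions, a ribosomal share and a doublet score per cell. The mitochondrial percent had medians of 2.35% to 3.67% per library. Cells of 2 sample names (6897 cells) matched no sample description and were not used. Doublets were kept, and cells with a score over 0.5 (6.21% to 8.60% of a library) were left out in an alternative.

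UMIs were summed per library and state. CPM is the count per 1000000 UMIs of that sum, not scaled by gene length, so levels are compared between cells and not between genes. A library of a given age was paired with the other library of that age in the same background, and age was compared within genotypes, as the labels give them. Sums were fitted with edgeR 4.0.16 (filterByExpr, TMM, quasi-likelihood F test, pair as a block) in R 4.3.3, with Benjamini-Hochberg adjustment over all genes. The fits of amyloid in microglia, of amyloid in DAM and of the amyloid effect by age were tried on simulated counts with known changes. The simulated pairs did not differ from each other, so this checked the code and not the calls in these data. DESeq2 1.42.0, its size factors, no filter, a fold limit, no block, HM only, the summed light chain and leaving out each pair were alternatives, and library size alone, microglia without DAM, other sets of DAM and the comparisons of age and Nlrp3 in DAM and of amyloid in TM were added after seeing the data. Levels by cell type took types with at least 20 cells in a library. Intervals cover counting error only.

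The members and lists were chosen with earlier results of these data known. Named besides the members were, by rule, the 4 genes of each list with the smallest p for amyloid in microglia, every called gene of a list, and the 3 most similar genes (of at least 500 UMIs). Protein sequences were not used here, and 2 genes of these lists, 1 of them a cell type marker, are not reported here and were left out of the lists' counts and sums.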

Additional observations from a re-analysis of the deposited data

Results flagged for a closer look

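Of 84 groups of 4 or 5 libraries, 7 held a library far from the others. The rule allows about 1 in 20 for like and independent libraries, whereas these groups overlapped and mixed ages or genotypes. In the microglia of the 5 Nlrp3KO libraries, Nlrp3KO APP/PS1 mice at 9 months stood apart for 3 genes, with Fth1 at 4062 CPM (the others 2705 to 3036), Ftl1 at 2206 CPM (1765 to 1843) and Slc40a1 at 124 CPM (152 to 158). In HM alone, Slc40a1 was at 165 CPM in that library and at 163 to 168 CPM in the other Nlrp3KO libraries. Tfrc in microglia was at 12.3 CPM in APP/PS1 mice at 3 months, against 8.44 to 9.06 CPM in the other amyloid libraries. In DAM, Fth1 was at 3957 CPM in WT mice at 9 months, against 3338 to 3433 CPM in the other non-diseased libraries at 3 and 9 months. Hmox1 in DAM was at 68.6 CPM in Nlrp3KO mice at 3 months, on 14 UMIs, against 37.0 to 44.1 CPM in the other Nlrp3KO libraries. Tfrc in DAM was at 35.2 CPM in APP/PS1 mice at 3 months, on 8 UMIs, against 3.30 to 12.05 CPM in the other Nlrp3-sufficient libraries.

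In 6 of 56 contrasts looked at, every library pair of a group moved opposite to every pair of the other. With 2 or 3 pairs in a group such a pattern can arise by chance, the number was not compared with chance, and 2 of the 6 are the same value by construction. Amyloid moved Hmox1 in microglia by -1.45 and -1.17 CPM at 3 months and by 3.53 and 8.25 CPM at 9 months, a mean difference of 7.20 CPM, and the interaction was 0.40 on the log2 scale (edgeR adjusted p = 0.884). Amyloid moved Ftl1 in microglia by -89.8 and -44.2 CPM in Nlrp3-sufficient pairs and by 77.5 and 399 CPM in Nlrp3KO pairs, a difference of 305 CPM that was not tested. Loss of Nlrp3 moved Ftl1-ps1 in microglia by -3.91 to -1.86 CPM in non-diseased pairs and by 4.49 and 11.1 CPM in APP/PS1 pairs, a difference of 10.6 CPM that was not tested. In DAM, amyloid moved Hmox1 by -27.4 and -10.2 CPM at 3 months and by 2.19 and 12.6 CPM at 9 months, and the difference of 26.2 CPM, which is by construction also that of the age effect between APP/PS1 and non-diseased mice, was not tested. Amyloid moved Tfrc in DAM by 1.80 and 28.9 CPM in Nlrp3-sufficient and by -16.3 and -2.19 CPM in Nlrp3KO pairs, a difference of -24.6 CPM on 1 to 20 UMIs per library that was not tested.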

How the results depend on the processing

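With an absolute log2 fold change over 1 asked for as well, 0 members were called for age in microglia and 0 for amyloid in DAM, and leaving out each pair in turn gave 0 to 2 members for age in microglia and 0 to 1 for the amyloid effect by age. That 1, Ftl1-ps1 without the Nlrp3-sufficient pair at 9 months, comes from a fit with a single pair left at that age, which is assumed to vary like the others and in which 116 of 12241 genes were called. No replicate block left 1 member for amyloid in DAM and 0 for age in DAM, and no other count of members moved without it. The pairs come from the labels, which give the same age and background. The DAM of the other annotation left 1 member for amyloid, and no filter on low counts gave 1 for amyloid in TM, Ftl1-ps1 (adjusted p = 0.035). Hmox1 for amyloid in DAM changed sign to -0.0916 with library size alone, -0.0032 in the other annotation and -0.29 in DAM with Cst7, and ran from -0.0615 to 0.27 as pairs were left out (-0.0561 without the Nlrp3KO pair at 9 months). Fth1 changed sign for age in DAM in the other annotation (-0.0020) and for amyloid in TM without the Nlrp3-sufficient pair at 3 months (0.021) or at 9 months (0.0089), within -0.0752 to 0.021 as pairs were left out. The cause was not tested. Without thinning, and at 1000 UMIs, the share with a UMI was 49.2% and 14.8% in HM and 49.7% and 12.8% in DAM for Slc11a1, 49.2% and 15.1% in HM and 26.1% and 4.55% in DAM for Slc40a1, and 11.1% and 2.63% in HM and 23.5% and 4.11% in DAM for Hmox1.

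Over all genes, DESeq2 called 44 genes for amyloid (edgeR 5) and 12 for Nlrp3 (4) in microglia, 241 for amyloid (445), 102 for age (262) and 3 for Nlrp3 (7) in DAM and 1 in TM (4). Without the block 0 were called for amyloid in microglia, 172 for amyloid, 32 for age and 1 for Nlrp3 in DAM and 0 in TM. HM alone gave 0 and microglia without DAM 3 for amyloid. No filter gave 429 for age and 53 for Nlrp3 in DAM and 22 in TM. The fold limit left 3, 2 and 415 for amyloid, Nlrp3 and age in microglia, 143 and 108 for amyloid and age in DAM and 1 in TM. The other annotation gave 134 and 401, and DAM with Cst7 142 and 44, for amyloid and age, and 0 for Nlrp3 in DAM with Cst7. Without likely doublets 291 were called for amyloid in DAM and 1 in TM. Leaving out pairs gave 0 to 15 (amyloid), 3 to 12 (Nlrp3), 923 to 2270 (age) and 0 to 457 (amyloid by age, 457 without the Nlrp3KO pair at 9 months) in microglia, 243 to 418 (amyloid), 67 to 317 (age) and 3 to 21 (Nlrp3) in DAM and 0 to 9 in TM. The limit on Tfrc in DAM is depth, with 1 to 20 UMIs per library, and the filter on low counts left it out of the test.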
